A study of Mus musculus with 6 samples.

Results

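The interferon response and major histocompatibility complex (MHC) class I genes described here were 44 genes chosen by name, and each had 1 row among the 26881 genes of the expression table. They were read in 3 lists: 29 type I targets, which type I interferon is best known to induce, 8 gamma-type genes, for which interferon gamma is the better known inducer, and 7 genes of MHC class I and antigen processing. RNA of 3 WT and 3 Cfp1-cKO heart samples, all from mice 2 weeks old, was sequenced to see how loss of Cfp1 changed cardiac transcription. The Cfp1-cKO mice were Myh6-Cre: Cfp1 flox/flox, so that Cre was driven by a promoter of heart muscle cells and Cfp1 (gene symbol Cxxc1) was to be lost in those cells, whereas the other cells of the heart kept the gene. Mice of both lines were C57BL/6. Whether the WT mice carried floxed alleles or Cre, and whether a sample was 1 heart or several, is not given in the sources used here, so that p-values measure the spread between these samples, which may be technical.

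Type I interferons signal through the receptor subunits Ifnar1 and Ifnar2 to a complex with Stat2 and Irf9, which binds the interferon-stimulated response element (ISRE). Interferon gamma signals through Ifngr1 and Ifngr2 to the gamma-activated site (GAS), and Irf1, an early product of that signal, in turn acts on ISRE-like elements. MHC class I molecules carry peptides, cut by the proteasome and pumped by Tap1 and Tap2, to the cell surface, where B2m is their shared light chain, and nearly all nucleated cells make them, heart muscle cells less than endothelial and blood cells.

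RefSeq promoters of GRCm38.p6, which run from 250 bases before to 50 bases after a start site, were matched for 32 of the 44 members. The ISRE core was searched as GAAA, 2 bases of any kind and GAAA again, and GAS as TTCNNNGAA, both on either strand, and the same bases could serve both motifs. The ISRE core was found in 18 of the 32 members (56.2%), against 3.99% of the 27025 genes of the promoter table (3.44% of its 32851 promoters, since a gene may have several). By list, it was found in 12 of 20 type I targets, 5 of 6 gamma-type genes and 1 of 6 genes of MHC class I and antigen processing. GAS was found in 8 of the 32 members (25%), against 9.55% of those genes and 8.3% of those promoters. The 6 stretches of 150 bases below end just before the start site and are written 5′ to 3′ on the gene's own strand, with ISRE cores and GAS on either strand in capitals. They were chosen because they span members that rose, did not pass the test, or were lower on average in Cfp1-cKO hearts. They lie at chr4:156200819-156200968 (minus strand, Isg15), chr19:34640739-34640888 (plus, Ifit1), chr8:71537473-71537622 (minus, Bst2), chr3:142530186-142530335 (plus, Gbp7), chr11:58199406-58199555 (plus, Igtp) and chr2:122147537-122147686 (plus, B2m).
Isg15: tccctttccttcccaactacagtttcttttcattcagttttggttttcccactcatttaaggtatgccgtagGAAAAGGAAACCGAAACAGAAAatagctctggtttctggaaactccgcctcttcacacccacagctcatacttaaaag
Ifit1: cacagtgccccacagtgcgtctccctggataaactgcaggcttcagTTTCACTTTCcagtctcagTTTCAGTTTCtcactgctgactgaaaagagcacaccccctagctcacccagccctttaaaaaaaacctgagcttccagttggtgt
Bst2: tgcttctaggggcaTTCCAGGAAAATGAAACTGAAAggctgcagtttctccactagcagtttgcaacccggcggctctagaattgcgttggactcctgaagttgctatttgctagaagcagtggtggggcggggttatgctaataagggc
Gbp7: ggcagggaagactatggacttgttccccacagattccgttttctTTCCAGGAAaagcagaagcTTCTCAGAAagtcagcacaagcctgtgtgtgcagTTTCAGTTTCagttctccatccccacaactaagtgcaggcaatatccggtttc
Igtp: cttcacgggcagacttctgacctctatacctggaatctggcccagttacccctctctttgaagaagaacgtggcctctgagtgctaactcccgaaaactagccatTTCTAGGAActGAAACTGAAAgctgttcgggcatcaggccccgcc
B2m: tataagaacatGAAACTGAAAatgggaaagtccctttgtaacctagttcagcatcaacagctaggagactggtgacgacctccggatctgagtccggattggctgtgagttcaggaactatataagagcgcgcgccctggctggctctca

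Isg15 had 3 overlapping ISRE cores in 1 run of capitals, and in Bst2 a GAS ran into 2 overlapping cores. Gbp7 had 2 GAS and 1 ISRE core, and Igtp had a GAS followed by an ISRE core just before its start site. No match to either motif lay in the 300-base windows of H2-D1, H2-K1, Tap1 or Psmb9, which says only that these letters are not in those windows. A match describes sequence and is no measure of binding in these hearts.

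The deposited values were FPKM, a fragment count set relative to exon length and library total, and the library totals worked back from them were between 16672652 and 22700811 fragments. Values below a mean of 1 FPKM were left out, and limma compared the genotypes on log2(FPKM + 1) over the 11017 genes kept. Calling a gene took an adjusted p under 0.05 together with a log2 fold change past 0.5 in size. The median tested gene was 0.35 higher in Cfp1-cKO hearts on the log2 scale, and higher genes made up 92.6% of those called. With median-of-ratios scaling, which sets the median ratio between libraries to 1 and brought this median to 0.00, they made up 53.5%. Both scalings are therefore given for the calls and the overlap of groups counted over the members. The genotypes also stood apart in the share of FPKM on mitochondrial genes, 59.3% to 59.8% in WT and 52.9% to 55.2% in Cfp1-cKO libraries, and in the number of genes above 0, 19037 to 20173 and 21906 to 22269, and the part of either in the results was not tested. The targeted gene, Cxxc1, ran from 9.66 to 12.9 FPKM in WT and from 8.02 to 9.94 FPKM in Cfp1-cKO libraries, over the whole gene and all cells, which is no measure of the deletion itself. Markers of heart muscle were high in all 6 libraries, with Myh6 at 1600 FPKM or more. The summed level of 12 lung epithelial markers was 0.374 to 3.96 FPKM in WT and 3363 to 5092 FPKM in Cfp1-cKO libraries. All 12 were called higher in Cfp1-cKO hearts with either scaling. They passed the filter only through their Cfp1-cKO values, so that their direction follows from the filter. In such bulk samples, fewer cells of a type and less RNA per cell cannot be told apart.

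Of the 44 members, 33 passed the filter on low values, which used the mean over all 6 libraries. Oasl2, Psmb9, Oas1a, Usp18 and Tap2 passed it only through their Cfp1-cKO values, with WT means from 0.608 to 0.903 FPKM. Their higher mean in Cfp1-cKO hearts therefore follows from the filter, and they are in the counts below. Compared to WT, 10 of the 33 (30.3%) were called higher in Cfp1-cKO hearts, against 21.1% of the 11017 tested genes. None was called lower (0 of 33 by limma, and 0 at an unadjusted p below 0.05), against 1.68% of tested genes. The called members were 9 of 20 type I targets (Isg15, Bst2, Ifit2, Oasl2, Trim30a, Parp14, Rsad2, Stat2 and Ddx58), 0 of 7 gamma-type genes and 1 of 6 genes of MHC class I and antigen processing (H2-D1). An unadjusted p below 0.05 was reached by 22 of the 33 (66.7%), all of them higher, against 43.8% of tested genes in either direction. The called members rose by 0.65 to 1.09 on the log2 scale, and their groups did not overlap, which for 7 of the 10 also held after scaling.

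The median log2 fold change was 0.65 for the type I targets, 0.51 for the gamma-type genes and 0.60 for the genes of MHC class I and antigen processing. Of the 33 tested members, 31 were above 0 (83.6% of all tested genes were) and 29 were above the median of all tested genes. All 3 Cfp1-cKO libraries lay above all 3 WT libraries for 23 of the 33, whereas 46.4% of all tested genes did so, and for none were all 3 below (3.23% of tested genes). Among all 44 members the count was 32, against 33.1% of the genes in the table.

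After median-of-ratios scaling, limma called 0 of the 33 members, against 3.74% of tested genes higher and 3.25% lower. An unadjusted p below 0.05 was then reached by 7 (21.2%), fewer in proportion than among all tested genes (24.7%), and voom of limma with the same scaling also called 0, with 6 at an unadjusted p below 0.05. The scaled medians were 0.33, 0.15 and 0.35 in the order of the lists above, and 29 of 33 members stayed above 0 (50.5% of tested genes were). All 3 Cfp1-cKO libraries lay above WT for 8 of the 33 (16.7% of tested genes), and for none below (14.9%), and among all 44 members for 10 (16.8% of the genes in the table). The differences between the 3 lists were not tested.

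**Figure D1:**
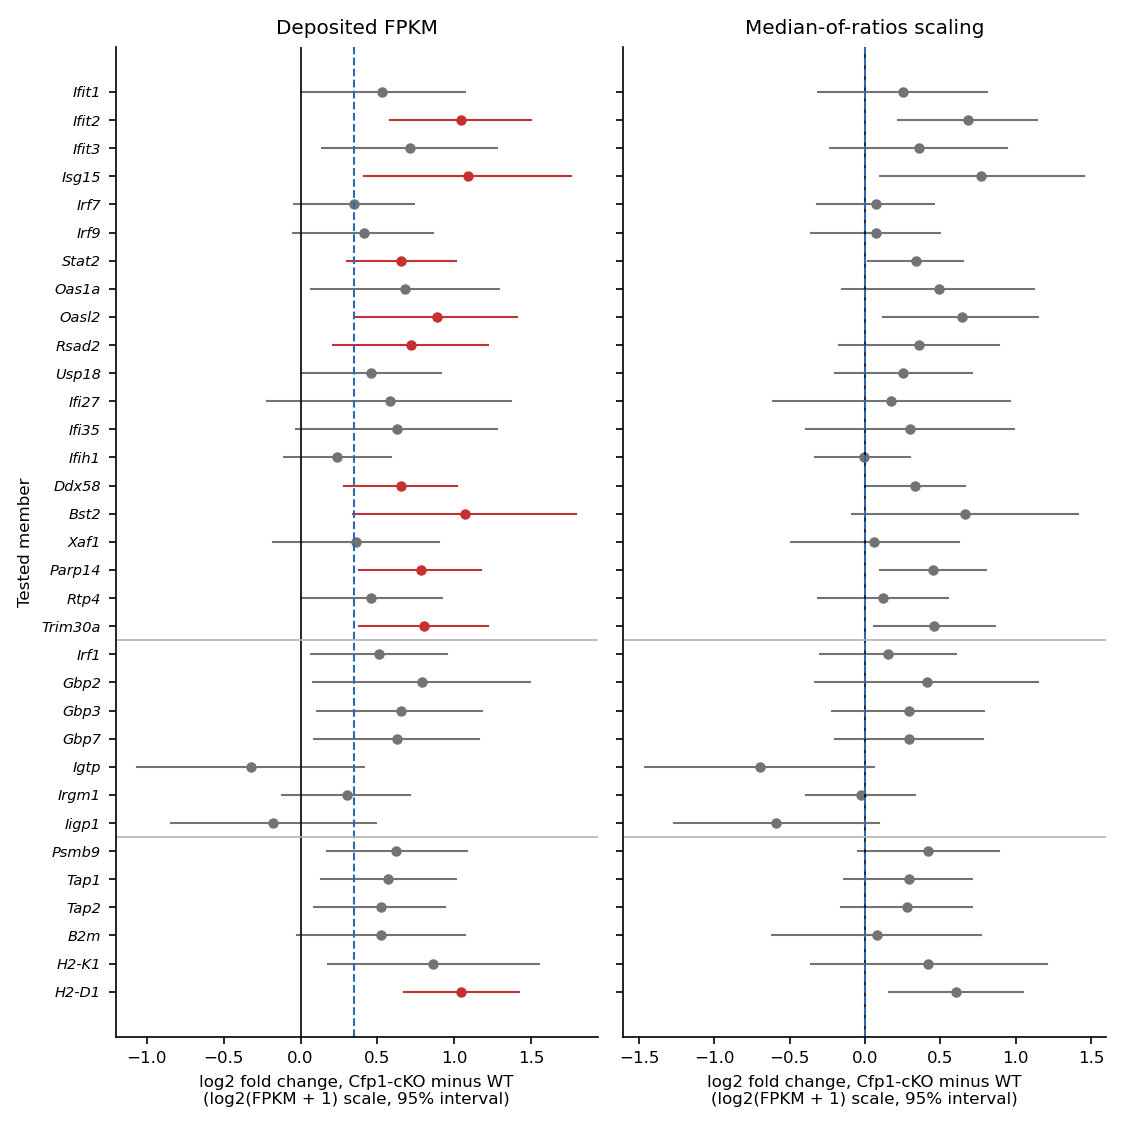
Log2 fold change, Cfp1-cKO minus WT, of the 33 tested members with its 95% interval from limma on log2(FPKM + 1), for the deposited FPKM (left) and after median-of-ratios scaling (right). Red marks the 10 called members, grey the others, the dashed line the median of all tested genes (0.35 left, 0.00 right), and grey rules part the 3 lists: with scaling all members move left and none is called.

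Among the tested type I targets, the secreted and conjugated ubiquitin-like protein Isg15 (chr4:156199424-156200818 of GRCm38, minus strand) showed the largest difference on the log2(FPKM + 1) scale, which understates low genes (of those below the filter, Oas3 had a larger ratio of means). It measured 1.40, 1.54 and 1.54 FPKM in WT, against 4.62, 7.06 and 2.28 FPKM in Cfp1-cKO hearts. The WT libraries lay close together, the groups did not overlap, and Cfp1-cKO replicate 3 was nearest to WT, and after scaling (1.84) lay below WT replicate 2 (1.88). The means were 1.49 ± 0.0836 and 4.65 ± 2.39 FPKM (SD, n = 3 each). Isg15 rose by 1.09 on the log2 scale (standard error 0.29, adjusted p = 0.0347 from limma). These values rest on 21 to 24 fragments per WT library and 31 to 89 per Cfp1-cKO library. With 1 library left out, Isg15 was called by limma only without Cfp1-cKO replicate 3 (adjusted p = 0.0107), and the other 5 fits gave adjusted p between 0.0502 and 0.105.

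Bst2, a membrane protein that tethers budding virus particles, measured 11.1, 4.35 and 10.1 FPKM in WT, against 19.7, 21.1 and 13.5 FPKM in Cfp1-cKO hearts. WT replicate 2 was far below the other WT libraries, and all Cfp1-cKO libraries were above WT. Bst2 was the type I target with the highest mean level and rose by 1.07 on the log2 scale (standard error 0.32, adjusted p = 0.0431 from limma). It was called by limma only without WT replicate 3 when 1 library was left out (adjusted p = 0.0385), and the other 5 fits gave 0.0561 to 0.14. After scaling, the lowest Cfp1-cKO value (11.0) fell below the WT values 13.0 and 11.1.

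Ifit2, an RNA-binding protein of the Ifit family that limits translation of viral RNA, measured 3.85, 2.26 and 3.65 FPKM in WT, against 8.21, 8.49 and 6.32 FPKM in Cfp1-cKO hearts. The groups were apart with either scaling. Ifit2 rose by 1.04 on the log2 scale (standard error 0.20, adjusted p = 0.0134 from limma), and after scaling its log2 fold change of 0.68 had the lowest adjusted p of the members (0.085 from limma). With 1 library left out and no scaling, its call was lost only without Cfp1-cKO replicate 2 (adjusted p = 0.0595 from limma). The other members of the family did not pass the test: Ifit1 differed by 0.53 on the log2 scale (adjusted p = 0.116 from limma) and Ifit3 by 0.71 (adjusted p = 0.0677 from limma), and in both the groups overlapped. Without Cfp1-cKO replicate 3, Ifit3 was called higher (0.94, adjusted p = 0.0492 from limma). Ifit3 shares 51.2% of its 50-base windows with Ifit3b, which was below the filter, so the split of fragments between them is uncertain.

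The Oas family senses double-stranded RNA, although Oasl2 lies in its less active branch. Oasl2 measured 0.898, 0.366 and 1.33 FPKM in WT, against 2.30, 2.94 and 1.93 FPKM in Cfp1-cKO hearts. The Cfp1-cKO libraries were all higher, with either scaling, and Oasl2 passed the filter only through them. Oasl2 rose by 0.89 on the log2 scale (standard error 0.23, adjusted p = 0.03 from limma), but with 1 library left out it was called only without WT replicate 3 (adjusted p = 0.0202) and was otherwise at 0.0539 to 0.109. Oas1a measured 0.771, 0.0844 and 1.00 FPKM in WT, against 1.69, 1.94 and 1.00 FPKM in Cfp1-cKO hearts. Oas1a differed by 0.68 on the log2 scale (adjusted p = 0.087 from limma). WT replicate 2 held 3 fragments of Oas1a, and 57.6% of the windows of this gene are shared with Oas1g.

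Trim30a, a regulator of immune signalling of the Trim family, measured 2.72, 2.06 and 2.73 FPKM in WT, against 5.12, 6.30 and 4.05 FPKM in Cfp1-cKO hearts. Parp14, an ADP-ribosyltransferase, measured 1.82, 1.69 and 2.74 FPKM in WT, against 4.23, 4.39 and 4.06 FPKM in Cfp1-cKO hearts. For both genes every Cfp1-cKO library was above every WT library, with either scaling, and the 3 Cfp1-cKO values of Parp14 were nearly equal. Trim30a rose by 0.80 (standard error 0.18, adjusted p = 0.0218 from limma) and Parp14 by 0.78 (standard error 0.17, adjusted p = 0.0201 from limma) on the log2 scale. Trim30a lost its call without WT replicate 1 (adjusted p = 0.0605) or Cfp1-cKO replicate 2 (0.0911), and Parp14 without WT replicate 1 (0.0749), Cfp1-cKO replicate 2 (0.0808) or Cfp1-cKO replicate 3 (0.0527), all from limma.

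Rsad2, also called viperin, an antiviral enzyme, measured 3.77, 3.07 and 2.98 FPKM in WT, against 6.96, 4.03 and 7.59 FPKM in Cfp1-cKO hearts. In contrast to most type I targets, its lowest Cfp1-cKO value was in replicate 2, which after scaling (3.29) lay among the WT values. It rose by 0.72 on the log2 scale (standard error 0.22, adjusted p = 0.048 from limma), was called without Cfp1-cKO replicate 2 (adjusted p = 0.0332), and was at 0.0855 to 0.14 without any other library.

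Of the sensors of foreign nucleic acid, Ddx58, which encodes the RNA sensor RIG-I, measured 1.99, 1.73 and 1.92 FPKM in WT, against 3.35, 4.25 and 3.02 FPKM in Cfp1-cKO hearts. The groups were apart with either scaling. Ddx58 rose by 0.65 on the log2 scale (standard error 0.16, adjusted p = 0.0273 from limma), and lost its call without WT replicate 1 (adjusted p = 0.08), WT replicate 2 (0.0513) or Cfp1-cKO replicate 2 (0.11). The related sensor Ifih1 was not called (log2 fold change 0.24, adjusted p = 0.251 from limma), and was at -0.01 after scaling.

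Of the transcription factors that carry the type I signal, Stat2 measured 1.79, 1.66 and 2.06 FPKM in WT, against 3.43, 3.93 and 3.03 FPKM in Cfp1-cKO hearts. Its groups did not overlap with either scaling. Stat2 rose by 0.65 on the log2 scale (standard error 0.15, adjusted p = 0.0243 from limma), and lost its call without WT replicate 1 (adjusted p = 0.0834) or Cfp1-cKO replicate 2 (0.104). Its partner Irf9 (log2 fold change 0.41, adjusted p = 0.15 from limma) was not called, nor was Irf7, which amplifies interferon production (log2 fold change 0.35, adjusted p = 0.146 from limma). Both were at 0.07 after scaling. Irf9 overlaps the neighbouring Rnf31 by 123 bases on the same strand.

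The other tested type I targets did not pass the test by limma. Their log2 fold changes were 0.63 for Ifi35, 0.58 for Ifi27, 0.46 for Rtp4, 0.46 for Usp18 and 0.36 for Xaf1, with adjusted p from 0.108 to 0.258. Ifi27, the most variable of them, measured 9.55, 4.81 and 16.3 FPKM in WT, against 14.7, 15.9 and 12.3 FPKM in Cfp1-cKO hearts, so that WT replicate 3 held the highest value of all. Without that library, Ifi27 was called higher (0.96, adjusted p = 0.0368 from limma).

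**Figure D2:**
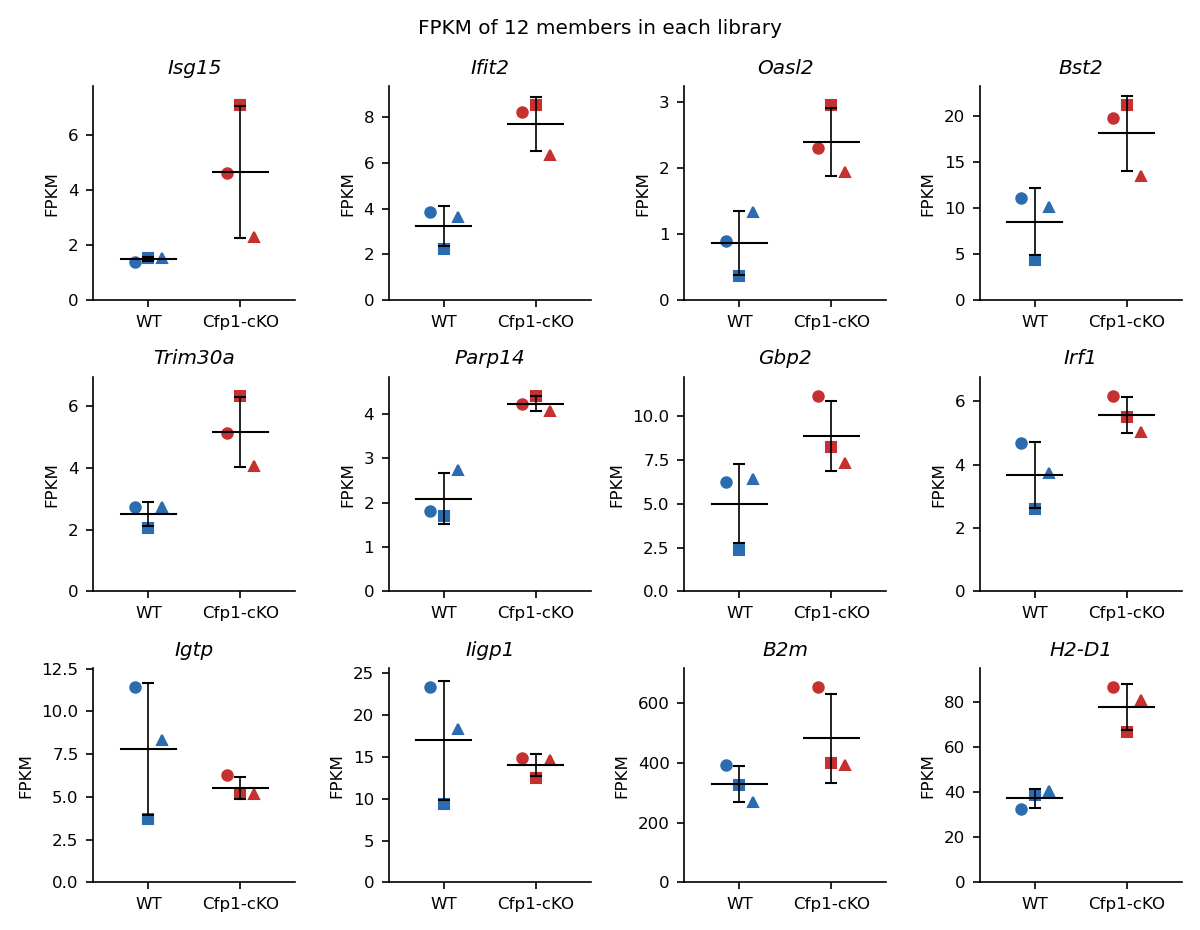
FPKM (vertical axis, linear from 0) of 12 members in the 3 WT (blue) and 3 Cfp1-cKO (red) libraries, with circles, squares and triangles for replicates 1, 2 and 3, and the mean ± SD in black. Isg15 in Cfp1-cKO hearts runs from 2.28 to 7.06 FPKM, H2-D1 separates the groups (32.4 to 40.3 against 66.4 to 86.3 FPKM), and for Igtp and Iigp1 the WT values span those of Cfp1-cKO hearts.

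The gamma-type genes did not pass the test: limma called 0 of 7, with 4 at an unadjusted p below 0.05, and voom on recovered fragments also called 0, with 2. Gbp2, a guanylate-binding protein that attacks the vacuoles of intracellular pathogens, measured 6.22, 2.38 and 6.40 FPKM in WT, against 11.1, 8.20 and 7.30 FPKM in Cfp1-cKO hearts. WT replicate 2 was well below the other libraries, and the groups did not overlap before scaling. The log2 fold change of Gbp2 was 0.79 (standard error 0.31, adjusted p = 0.0884 from limma), and 0.41 after scaling (adjusted p = 0.455).

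The related Gbp3 measured 3.72, 2.18 and 4.47 FPKM in WT, against 5.61, 7.22 and 4.79 FPKM in Cfp1-cKO hearts. Gbp7 measured 2.63, 1.59 and 3.64 FPKM in WT, against 3.88, 5.47 and 4.08 FPKM in Cfp1-cKO hearts. The transcription factor Irf1 measured 4.68, 2.60 and 3.74 FPKM in WT, against 6.15, 5.49 and 5.04 FPKM in Cfp1-cKO hearts. In each of these genes WT replicate 2 was the lowest library and all Cfp1-cKO libraries were above WT, which no longer held after scaling. Their log2 fold changes were 0.65 for Gbp3 (adjusted p = 0.0716 from limma), 0.63 for Gbp7 (adjusted p = 0.0775) and 0.51 for Irf1 (adjusted p = 0.0812). Without WT replicate 3, limma called Gbp3 (0.81, adjusted p = 0.0435) and Gbp7 (0.83, adjusted p = 0.0354) higher, the only gamma-type genes called higher in a fit with 1 library left out.

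Iigp1 and Igtp are immunity-related GTPases. Iigp1, the gamma-type gene with the highest mean level, measured 23.3, 9.32 and 18.3 FPKM in WT, against 14.9, 12.5 and 14.6 FPKM in Cfp1-cKO hearts. Igtp measured 11.4, 3.70 and 8.32 FPKM in WT, against 6.27, 5.19 and 5.16 FPKM in Cfp1-cKO hearts. For both genes WT replicates 1 and 3 were above, and WT replicate 2 below, all Cfp1-cKO libraries. Their log2 fold changes were -0.18 for Iigp1 (95% interval -0.84 to 0.49, adjusted p = 0.653 from limma) and -0.32 for Igtp (95% interval -1.06 to 0.41, adjusted p = 0.445 from limma). After scaling these became -0.59 and -0.70, with adjusted p of 0.256 and 0.229. Without WT replicate 2, Igtp was called lower by limma on the deposited values (-0.72, adjusted p = 0.0378) and Iigp1 was not (-0.54, adjusted p = 0.064). With scaling and without that library, an alternative chosen after seeing the data, limma called both Igtp (-1.09, adjusted p = 0.0326) and Iigp1 (-0.93, adjusted p = 0.044) lower. Irgm1, the other member of this family, had a log2 fold change of 0.30, and of -0.03 after scaling. Of the family's genes that are not members, limma called Ifi47 higher (0.58, adjusted p = 0.0459), but not after scaling, when its groups overlapped, and did not call Irgm2 (0.12) or Tgtp2 (0.33). Igtp overlaps Irgm2 over 7974 bases on the same strand and shares 11.8% of its 50-base windows with it, so that fragments of the pair may not be separable.

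Of the genes of MHC class I and antigen processing, the heavy chain H2-D1 (chr17:35262730-35267499 of GRCm38, plus strand) measured 32.4, 38.9 and 40.3 FPKM in WT, against 86.3, 66.4 and 80.6 FPKM in Cfp1-cKO hearts. Every Cfp1-cKO library was above every WT library, with either scaling, and the means were 37.2 ± 4.23 and 77.8 ± 10.2 FPKM (SD, n = 3 each), a 2.09-fold difference. H2-D1 rose by 1.04 on the log2 scale (standard error 0.16, adjusted p = 0.00679 from limma), and after scaling its log2 fold change was 0.60 (adjusted p = 0.105). It was the only member called in all 6 fits with 1 library left out, with adjusted p from 0.0108 to 0.0357. The heavy chain H2-K1 measured 26.5, 52.7 and 52.8 FPKM in WT, against 106, 66.7 and 65.0 FPKM in Cfp1-cKO hearts. WT replicate 1 was the low and Cfp1-cKO replicate 1 the high library, and its log2 fold change was 0.86 (adjusted p = 0.066 from limma). H2-D1 shares 12.8% and H2-K1 9.63% of their 50-base windows with other genes, so that fragments may be split among class I heavy chains.

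The light chain B2m was by far the most abundant member, and measured 392, 325 and 269 FPKM in WT, against 651, 398 and 393 FPKM in Cfp1-cKO hearts. Cfp1-cKO replicate 1 stood apart, whereas replicates 2 and 3 lay just above the highest WT library. The log2 fold change of B2m was 0.52 (95% interval -0.02 to 1.07, adjusted p = 0.125 from limma), and 0.08 after scaling.

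The peptide transporter subunit Tap1 measured 1.46, 0.911 and 1.89 FPKM in WT, against 2.76, 2.71 and 2.20 FPKM in Cfp1-cKO hearts. Its partner Tap2 measured 0.594, 0.954 and 1.16 FPKM in WT, against 2.08, 1.67 and 1.39 FPKM in Cfp1-cKO hearts. The immunoproteasome subunit Psmb9 measured 0.698, 0.247 and 0.880 FPKM in WT, against 1.67, 1.39 and 1.27 FPKM in Cfp1-cKO hearts. The groups did not overlap in these 3 genes, and of them Psmb9 alone stayed apart after scaling. Their log2 fold changes were 0.57 for Tap1 (adjusted p = 0.06 from limma), 0.52 for Tap2 (adjusted p = 0.072) and 0.62 for Psmb9 (adjusted p = 0.053), none of which passed the test. Without WT replicate 3, limma called Psmb9 (0.75, adjusted p = 0.0416) and Tap1 (0.71, adjusted p = 0.0401) higher. Psmb9 and Tap1 overlap by 212 bases on opposite strands, and whether the counting used strand is not given in the sources used here. The partner subunit Psmb8, below the filter, measured 0.886, 0.349 and 0.650 FPKM in WT, against 1.44, 1.32 and 1.06 FPKM in Cfp1-cKO hearts.

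Below the filter were 11 members, namely the type I targets Ifit3b, Oas2, Oas3, Oasl1, Mx1, Mx2, Ifi44, Dhx58 and Zbp1, the gamma-type Nlrc5, a transactivator of MHC class I genes, and Psmb8. Their mean levels ran from 0.101 to 0.967 FPKM, resting on 0 to 158 fragments in a library. All 11 had a higher mean in Cfp1-cKO hearts before scaling, when 83.6% of the genes above the filter had a log2 fold change above 0. In 9 all Cfp1-cKO libraries lay above WT, against 33.1% of the genes in the table. After scaling this held for 2 of the 11 (Oas3 and Dhx58), against 16.8% of the genes in the table. With the filter lowered to a mean of 0.1 FPKM, all 44 members were tested, and limma called 8 higher, against 14.9% of tested genes. None of these 11 was among the 8.

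**Figure D3:**
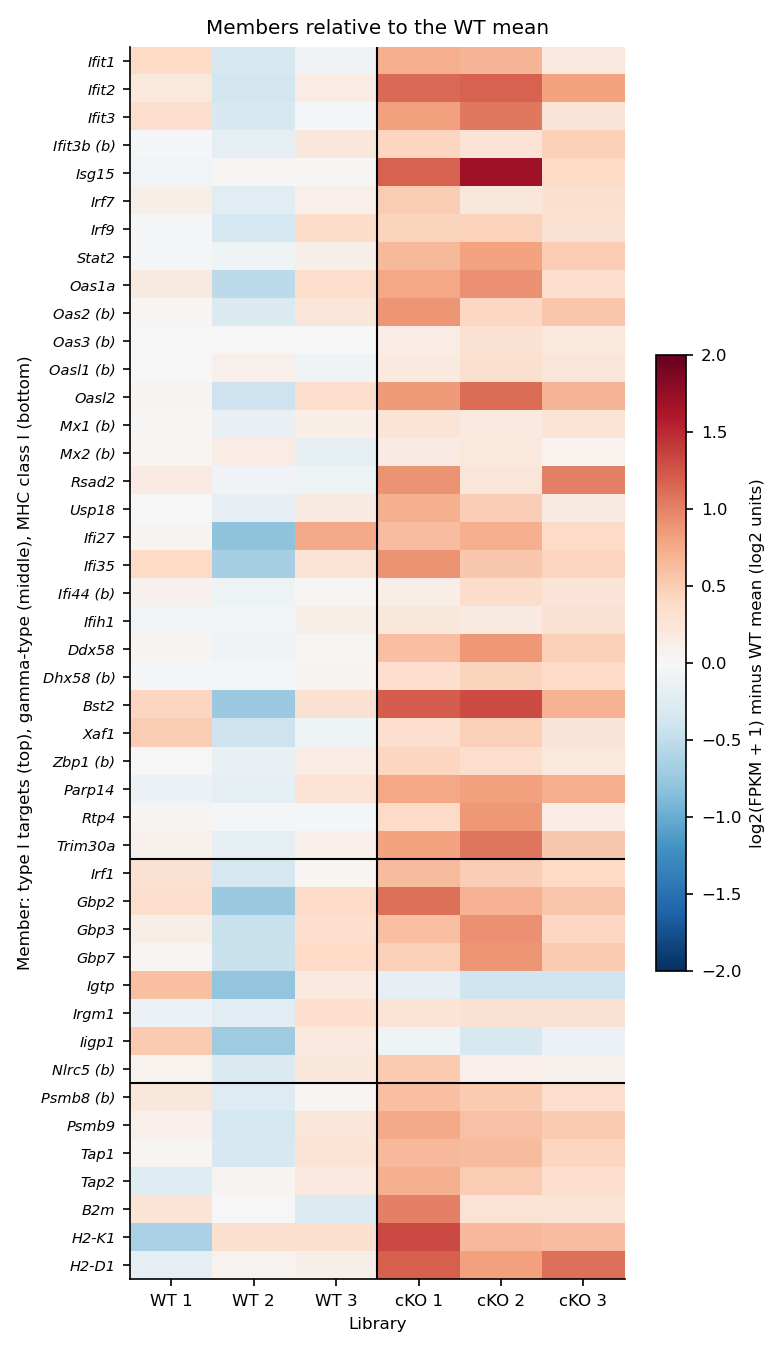
Log2(FPKM + 1) minus the WT mean (log2 units, colour) of the 44 members in each of the 6 libraries, with black lines between the genotypes and the 3 lists and (b) for the 11 members below the filter. WT replicate 2 is pale to blue in most type I and gamma-type genes, and all 7 genes of MHC class I and antigen processing are highest in Cfp1-cKO replicate 1.

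The members varied within genotypes along 2 patterns. Among WT libraries, replicate 2 was the lowest of all 6 libraries for 16 of 20 tested type I targets and 7 of 7 tested gamma-type genes, but for 2 of 6 genes of MHC class I and antigen processing. It was so for 42.3% of all tested genes. Among marker lists described below, it was so for 8 of 10 leukocyte, 7 of 12 macrophage and monocyte and 5 of 10 T and NK cell markers. The counts were 3 of 10 for cardiomyocyte, 2 of 9 for alveolar macrophage, 2 of 8 for B and plasma cell and 1 of 8 for endothelial markers. They were 1 of 5 for plasmacytoid dendritic cell, 0 of 6 for neutrophil and 0 of 12 for lung epithelial markers. These marker counts include genes below the filter, and equal values were credited to the first library. On that footing it was so for 9573 of the 26881 genes in the table. The median difference of WT replicate 2 from the mean of the other WT libraries was -0.41 on the log2 scale for type I targets, -0.68 for gamma-type genes, 0.04 for MHC class I and antigen processing and -0.07 for all tested genes. After scaling these were -0.36, -0.62, 0.12 and 0.00. Without WT replicate 2, limma called 5 members higher (Ifit2, H2-D1, Parp14, Stat2 and Trim30a) and 1 lower (Igtp).

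Among Cfp1-cKO libraries, replicate 2 was highest for 14 of 20 tested type I targets, and replicate 1 for 4 of 7 gamma-type genes and for 6 of 6 genes of MHC class I and antigen processing. Over all tested genes, replicate 1 was the highest Cfp1-cKO library for 15.3%, replicate 2 for 39.6% and replicate 3 for 45.1%. Replicate 3 was the highest for 2 of the 33 tested members, and the summed type I targets were at 111, 117 and 87.4 FPKM in replicates 1, 2 and 3. In the same order, summed leukocyte markers were at 34.5, 47.5 and 38.1 FPKM. Macrophage and monocyte markers were at 509.9, 660.2 and 848 FPKM, of which Lyz2 alone was at 387, 548 and 771 FPKM. Gene by gene, replicates 1, 2 and 3 were the highest Cfp1-cKO library for 6, 5 and 1 of these 12 markers. For the 10 leukocyte markers the counts were 2, 5 and 3. These counts and sums describe single libraries and were not tested.

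Upstream of the members, a list of 38 interferon ligands, receptors and signalling genes had 25 tested genes. Of these, 7 (28%) were called higher, against 21.1% of all tested genes (Eif2ak2, Ptpn6, Samhd1, Tmem173, Tlr3, Stat3 and Irf3). With 0 called lower, the median log2 fold change was 0.45. After scaling, 1 was called (4%), against 3.74% of tested genes, and the median was 0.10. That gene, Ptpn6, passed the filter only through its Cfp1-cKO values. Eif2ak2, the RNA-activated kinase that halts translation, measured 1.89, 0.903 and 2.31 FPKM in WT, against 3.82, 4.75 and 4.67 FPKM in Cfp1-cKO hearts, and rose by 1.04 on the log2 scale (adjusted p = 0.0184 from limma). Ptpn6, a phosphatase of blood cells that dampens cytokine signals, measured 0.739, 0.852 and 0.674 FPKM in WT, against 1.92, 2.61 and 2.12 FPKM in Cfp1-cKO hearts, and rose by 0.87 (adjusted p = 0.012 from limma). In both genes the groups were apart with either scaling. Samhd1, which depletes nucleotides for DNA synthesis, measured 2.46, 1.37 and 3.28 FPKM in WT, against 4.87, 4.25 and 5.21 FPKM in Cfp1-cKO hearts. It rose by 0.82 (adjusted p = 0.0355 from limma). Tmem173, the adaptor STING, measured 1.51, 1.87 and 1.74 FPKM in WT, against 3.34, 4.43 and 2.53 FPKM in Cfp1-cKO hearts, and rose by 0.69 (adjusted p = 0.0351 from limma). The groups of Samhd1 and Tmem173 did not overlap before scaling and overlapped after it.

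Of the receptor subunits, Ifnar1 averaged 4.02 ± 0.927 FPKM (SD of 3 libraries) in WT, against 6.06 ± 1.15 FPKM for Cfp1-cKO, with overlapping groups, and Ifnar2 ran from 3.37 to 4.55 and from 5.14 to 6.38 FPKM. Levels of Ifngr1 ran from 22.9 to 26.3 FPKM in WT and from 27.9 to 34.9 FPKM in Cfp1-cKO libraries, and those of Ifngr2 from 25.8 to 34.4 and from 31.4 to 38.9 FPKM. The receptor subunits were not called, with log2 fold changes of 0.50 for Ifnar1, 0.46 for Ifnar2, 0.27 for Ifngr1 and 0.26 for Ifngr2 (adjusted p from 0.0697 to 0.251 by limma), which after scaling were 0.13, 0.10, -0.16 and -0.18. Ifng itself was listed at 0 in 5 libraries and at 0.0926 FPKM in Cfp1-cKO replicate 2. Type I interferon genes without a row were not analysed here.

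Of the other MHC class I and peptide loading genes, 11 of 19 tested (57.9%) were called higher, against 21.1% of all tested genes. With 0 called lower, the median log2 fold change was 0.60. After scaling, 1 (H2-Q7, 5.26%) was called, against 3.74% of tested genes, and the median was 0.23. The largest differences were those of the class I heavy chains H2-Q7 (1.33, adjusted p = 0.00646 from limma), H2-Q6 (1.20, adjusted p = 0.0119) and H2-Q4 (0.87, adjusted p = 0.0144), and of the immunoproteasome subunit Psmb10 (1.31, adjusted p = 0.0119). H2-Q7 measured 2.25, 2.00 and 1.86 FPKM in WT, against 8.33, 4.67 and 7.39 FPKM in Cfp1-cKO hearts. Psmb10 measured 12.0, 7.06 and 11.0 FPKM in WT, against 32.6, 26.6 and 19.7 FPKM in Cfp1-cKO hearts. H2-Q6 measured 3.57, 5.24 and 3.84 FPKM in WT, against 12.9, 7.82 and 12.7 FPKM in Cfp1-cKO hearts, and H2-Q4 4.58, 5.76 and 5.37 FPKM, against 12.3, 8.64 and 10.3 FPKM. H2-D1 and these heavy chains were thus higher in every Cfp1-cKO library, in each case with Cfp1-cKO replicate 2 the lowest of the 3. The Q-region heavy chains are near copies of each other, and the split of fragments between them is uncertain.

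Of 49 other interferon-stimulated genes, 34 were tested and 15 (44.1%) were called higher, against 21.1% of all tested genes. With 0 called lower, the median log2 fold change was 0.59. After scaling, 1 (Ifi30, 2.94%) was called, against 3.74% of tested genes, and the median was 0.32. Ube2l6, the conjugating enzyme for Isg15, measured 5.78, 5.37 and 4.70 FPKM in WT, against 15.6, 15.8 and 9.18 FPKM in Cfp1-cKO hearts, and rose by 1.18 (adjusted p = 0.0119 from limma). As for Isg15, Cfp1-cKO replicate 3 was the lowest of the 3 and still above WT. Slfn2, of the Schlafen family, rose by 1.16 (adjusted p = 0.0143) and Ifi30, a lysosomal thiol reductase of antigen-presenting cells, by 1.15 (adjusted p = 0.00669), both from limma. Slfn2 ran from 2.28 to 2.77 FPKM in WT and from 4.57 to 9.32 FPKM in Cfp1-cKO libraries, and Ifi30 from 4.09 to 5.79 and from 9.89 to 13.7 FPKM. Ifi27l2a, at 10.8, 2.75 and 9.48 FPKM in WT and 24.5, 20.7 and 7.91 FPKM in Cfp1-cKO hearts, had a log2 fold change of 1.14 with overlapping groups and was not called (adjusted p = 0.117 from limma).

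**Figure D4:**
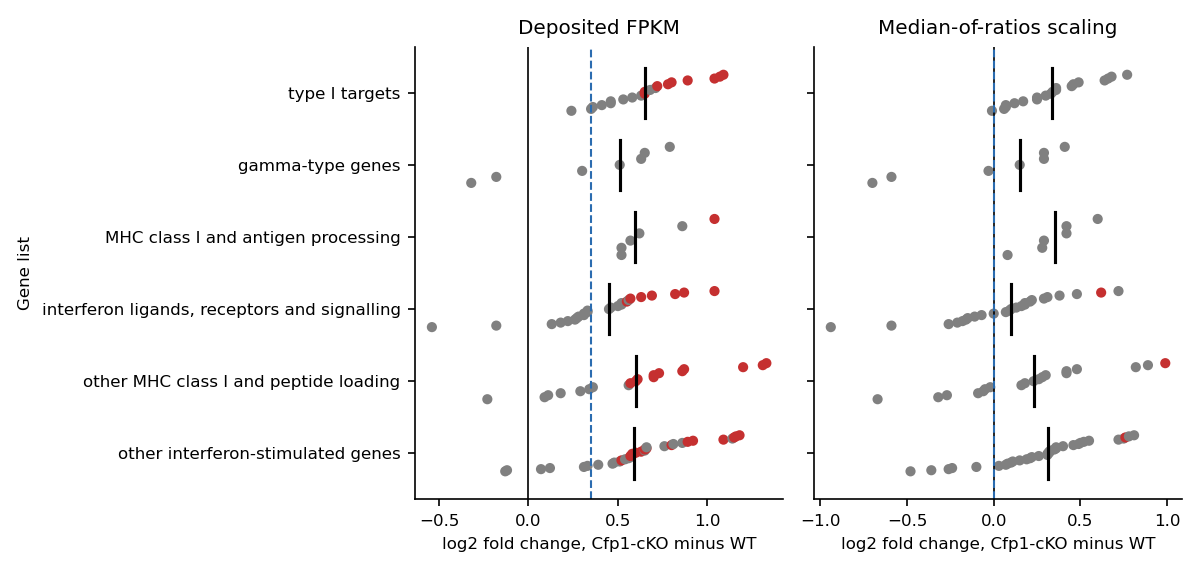
Log2 fold change, Cfp1-cKO minus WT, of each tested gene in the 3 lists of members and the 3 other lists of the pathway, for the deposited FPKM (left) and after median-of-ratios scaling (right), ordered by size within a list. Red points were called higher, black bars are list medians, and the dashed line is the median of all tested genes; with scaling, 1 red point is left in each of the 3 other lists and none among the members.

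Markers of other cells moved with genotype beside these results. Tested markers with a WT mean below the filter were tested only because of their Cfp1-cKO values. Among them were all lung epithelial markers, all tested B, plasma, T and NK cell markers, and the leukocyte markers Itgb2 and Rac2. Of all tested genes, 21.1% were called higher and 1.68% lower, and after scaling 3.74% and 3.25%. Of the leukocyte markers 7 of 8 tested were called higher (4 after scaling), and their summed level was 10.9 to 16.2 FPKM in WT and 34.5 to 47.5 FPKM in Cfp1-cKO hearts, with Arhgdib (2.14 to 4.94 and 4.94 to 9.45 FPKM) and Laptm5 (1.54 to 2.59 and 6.15 to 9.45 FPKM) the most abundant. Ptprc, the defining leukocyte antigen, was below the filter, at 0.238 to 0.321 FPKM in WT and 0.824 to 1.01 FPKM in Cfp1-cKO libraries. Lung epithelial Sftpc, at 0, 0.330 and 0 FPKM in WT, was at 1202, 2163 and 3232 FPKM in Cfp1-cKO replicates 1, 2 and 3. Scgb1a1 of airway cells was at 2904, 405 and 671 FPKM in the same libraries. Nkx2-1 and Lamp3 were at 0 in all WT libraries.

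Macrophage and monocyte markers were called higher in 4 of 10 (2 after scaling), with summed levels of 98.8 to 110.4 FPKM in WT and 509.9 to 848 FPKM in Cfp1-cKO hearts, where Lyz2 alone measured 387 to 771 FPKM. C1qb was at 14.8 to 18.8 and 17.0 to 34.8 FPKM. Alveolar macrophage markers were called in 2 of 3 with either scaling (sums 24.3 to 45.9 and 63.5 to 137 FPKM), with Marco and Ear1 at 0 in WT. Chil3 was at 0.136 to 3.41 and 15.5 to 80.0 FPKM, whereas Car4, which endothelium also makes, was at 23.9 to 42.1 and 23.5 to 41.1 FPKM. B and plasma cell markers were called in 3 of 3 (2 after scaling) and were highest in Cfp1-cKO replicate 1 (221 FPKM, against 62.6 and 86.7 FPKM in the other Cfp1-cKO and 1.05 to 2.80 FPKM in WT libraries), with Igkc at 0 in WT and Jchain at most 0.0211 FPKM there. The 1 tested T and NK cell marker, Trac, was called with either scaling, and the sums were 0.512 to 1.14 FPKM in WT and 4.21 to 5.15 FPKM in Cfp1-cKO hearts. Trac, the alveolar macrophage marker Ear2 and the 3 tested B and plasma cell markers passed the filter only through their Cfp1-cKO values. Their direction therefore follows from the filter. Trac was at 0.284 to 0.594 and 1.76 to 2.79 FPKM, and Nkg7, below the filter, at 0.0580 to 0.145 and 0.425 to 1.24 FPKM.

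Of the remaining lists, that of plasmacytoid dendritic cells, known as strong producers of type I interferon, left out Bst2, as a member, and Cox6a2, as a muscle gene. It had 0 of 1 called by limma (Tcf4, 3.77 to 4.87 and 4.39 to 6.46 FPKM, 0 at an unadjusted p below 0.05), and 1 tested gene is no measure of these cells. Runx2 was at 0.0377 to 0.0420 and 0.0929 to 0.170 FPKM, and Siglech at 0 in WT and at most 0.0759 FPKM in Cfp1-cKO libraries. Neutrophil markers had 0 of 3 called by limma (0 at an unadjusted p below 0.05), and their sums overlapped between genotypes (2.77 to 24.6 FPKM in WT and 4.36 to 22.1 FPKM in Cfp1-cKO hearts), as did S100a9 (2.02 to 16.1 and 2.66 to 13.3 FPKM) and S100a8 (0.480 to 5.50 and 1.20 to 5.70 FPKM). Endothelial markers had 2 of 8 called higher (0 after scaling), with sums of 141 to 219 FPKM in WT and 166 to 251 FPKM in Cfp1-cKO hearts, and Cdh5 (31.8 to 40.5 and 49.8 to 74.8 FPKM) and Pecam1 (33.8 to 59.8 and 38.9 to 52.5 FPKM) the most abundant. Of the cardiomyocyte markers 5 of 10 were called lower with either scaling, with sums of 11657 to 19812 and 9235 to 12847 FPKM, but neither Actc1 (2274 to 7660 and 3123 to 4340 FPKM) nor Myl2 (2111 to 4066 and 2641 to 3957 FPKM), the most abundant, was called. The part of these cells in the differences of the members was not tested. The summed lung and leukocyte markers were higher in every Cfp1-cKO than in every WT library, so that marker level and genotype cannot be told apart.

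**Figure D5:**
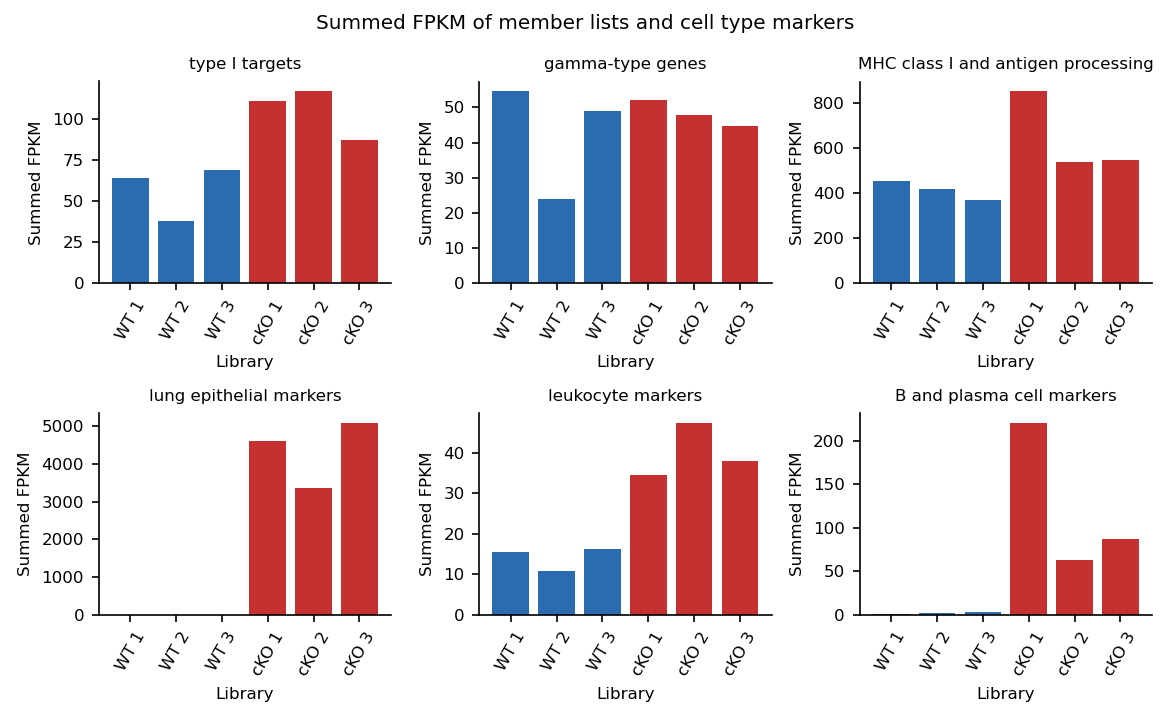
Summed FPKM (bars from 0, each panel with its own scale) of the 3 lists of members and of 3 lists of cell type markers in the 6 libraries, WT in blue and Cfp1-cKO in red. The sum of MHC class I and antigen processing is mostly B2m and peaks in Cfp1-cKO replicate 1 (851 FPKM), and type I targets peak in replicate 2 (117 FPKM). Lung epithelial markers peak in replicate 3 (5092 FPKM), leukocyte markers in replicate 2 (47.5 FPKM) and B and plasma cell markers in replicate 1 (221 FPKM). These orders were not tested.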

How the data were processed

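Libraries of 3 WT and 3 Cfp1-cKO heart samples were sequenced. The authors deposited FPKM per gene, in 2 tables with equal values for all 26881 genes. For alignment, the authors give Bowtie2 2.2.3, TopHat2 and HISAT2 2.1.0 in the submitters' processing notes, with HTSeq 0.6.0 for counting and CASAVA, for the build GRCm38. For testing, the authors give DESeq in the paper and DESeq2 in those notes. A chicken genome is the reference address in the paper. The extraction text speaks of retinas and could not be related to these hearts.

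Fragments were recovered from the FPKM steps with exon lengths of GENCODE M21. They were whole (tolerance 0.02) in each library for 23961 genes, and with another length for 2915. The genes whose mean was 1 FPKM or more were compared by limma 3.58.1 (R 4.3.3, trend in the prior variance, two-sided) on log2(FPKM + 1), with Benjamini-Hochberg adjustment over all 11017 tested genes, and called where this p was under 0.05 and the log2 fold change past 0.5 in either direction. This scale understates changes of low genes. The planned design named a count test for counts and limma for FPKM, and the latter applied. The step was also run on simulated fragments in which changed genes went up and down alike. With no shift of the median gene in them, they say nothing about calls under the shift seen here. Lists of markers and pathway genes were not trimmed by their values.

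The members and lists were chosen with earlier results of these data known. Values in every library are given for the 6 type I targets and 4 gamma-type genes with the largest absolute log2 fold change, all genes of MHC class I and antigen processing, the most abundant member of each list and the 4 genes of each pathway list with the largest difference (some of these, the receptor subunits and the 2 most abundant markers of each cell type as ranges or means). Rsad2, Ddx58, Stat2, Oas1a, Ifi27, Igtp, Ifi47, Irgm2 and Tgtp2 were added after their values were seen. A gene of the signalling list is not reported here. Alternatives covered scaling, pseudocount, filter, mitochondrial and haemoglobin genes, variance trend, library weights, replicate block, voom and each library left out. A sex term, and scaling combined with voom or without WT replicate 2, were chosen after seeing the data. The labels give no sex, so it was inferred from Xist and Y-linked genes in these same libraries, which held both sexes. Python 3.11.15, numpy 2.4.6, pandas 2.3.3 and matplotlib 3.10.9 were used for tables and plots. Motifs were searched in RefSeq promoters, and 50-base windows shared between genes were counted in GENCODE M21 transcripts. Columns of annotation terms were not used, and protein sequences were not used here.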

Additional observations from a re-analysis of the deposited data

How the results depend on the processing

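Of 693 fold changes of single members recomputed under the alternatives, 547 kept their direction and their side of the threshold, 101 lost and 22 gained a call, and 23 changed sign. Members called higher, 10 by limma as reported, numbered 0 after median-of-ratios or trimmed-mean scaling. They also numbered 0 where median-of-ratios scaling was combined with no fold threshold, with voom or with WT replicate 2 left out. Without scaling they numbered 7 with voom, 5 without the filter, 3 with the replicate block, 18 with library weights, and 2 to 13 with each library left out. Members called lower, 0 as reported, numbered 2 with library weights, 2 with scaling and no WT replicate 2, and 0 to 1 with each library left out. Type I targets called higher, 9 as reported, numbered 0 under every fit with either scaling, 4 without the filter, 2 with the replicate block, 11 with library weights and 1 to 8 with each library left out. Gamma-type genes numbered 2 with library weights and 0 to 2 with each library left out. Genes of MHC class I and antigen processing, 1 as reported, numbered 0 under every fit with either scaling, 2 without the variance trend or with a sex term, 5 with library weights and 1 to 3 with each library left out. Library weights gave WT replicate 1 a weight of 7.97 and the others 0.303 to 1.56. The cause of these changes was not tested.

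The values that changed sign were these. With median-of-ratios scaling Ifih1 was at -0.01 and Irgm1 at -0.03, also without the fold threshold, and with trimmed-mean scaling at -0.02 and -0.03. With scaling and without WT replicate 2 the values were -0.03 for Irf7, -0.09 for Irf9, -0.21 for Ifi27, -0.04 for Ifi35, -0.03 for Ifih1, -0.14 for Xaf1, -0.01 for Irf1 and -0.12 for Irgm1. With voom and scaling they were -0.02 for Irf7, -0.01 for Irf9, -0.13 for Ifih1, -0.02 for Xaf1, -0.14 for Irgm1 and -0.02 for B2m. Xaf1 was at -0.04 with library weights, and Iigp1 at -0.54 to 0.08 with each library left out (0.08 without WT replicate 1) and at 0.02 with a sex term.

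Same-numbered WT and Cfp1-cKO libraries had deviations that correlated at 0.108, 0.036 and 0.104, so that the numbers were not taken as pairs. All 6 libraries correlated best with their own number, a hint from the data and not from the design. With the replicate block, limma called Ifit2, Parp14 and H2-D1. Over all genes, higher calls numbered 2325 as reported, 1597 with the block, 412 after scaling and 538 to 2588 with each library left out. Depth limits the members below the filter, with 0 to 158 fragments in a library.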
